A study of Mus musculus with 8 samples.

Results

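The oligoadenylate synthetase (Oas) family was followed through 8 mouse ovarian tumours by taking every array spot that is not a control and carries the gene name Oas1a, Oas1b, Oas1c, Oas1f, Oas1g, Oas2, Oas3, Oasl1 or Oasl2. These 9 genes had 12 probes, 1 spot each, among 39429 probes that are not controls. All 8 mice were female C57BL/6JTgMISIIR-TAg animals. In this strain a MISIIR (Amhr2) promoter drives the T antigen of SV40, so the AZD1480 and the vehicle group both carried the transgene, and both had ovarian tumours of about 500 mm3. The 4 AZD1480 mice were given 30 mg/kg of this JAK1 and JAK2 inhibitor in hypromellose with Tween 80, the 4 vehicle mice were given the hypromellose and Tween 80 alone, and RNA of tumour tissue collected 6 h later was hybridised to 1 array per mouse. Slide 1 held replicates 1 and 2 of each group and slide 2 replicates 3 and 4.

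OAS enzymes bind double-stranded RNA and then join ATP into 2′,5′-linked oligoadenylates (2-5A). This messenger sets off an antiviral response in infected cells that limits viral growth. The Oas genes are classic interferon-induced genes: interferon receptors signal through JAK kinases to transcription factors that bind interferon-stimulated response elements in promoters. The mouse has a single Oas2 and Oas3 gene but many Oas1 copies, of which Oas1a and Oas1g encode active enzymes.

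The family lies on chromosome 5. In the current mouse RefSeq table its order is Oasl2 and Oasl1, then at a distance Oas2, Oas3, Oas1e, Oas1c, Oas1b, Oas1f, Oas1h, Oas1g, Oas1a and Oas1d, with 0 other coding genes between the first and the last of these 10 neighbours. Copies this close in sequence can share a probe, so the stretches where probes of different copies resemble each other most are shown first, 30 bases each, 5′ to 3′ as on the array, with capitals at the bases that differ. The Oas1a stretch is bases 1 to 30 of the probe at chr5:121346735-121346794 (mm9, minus strand) and the Oas1f stretch bases 3 to 32 of the probe at chr5:121307929-121307988 (mm9, plus strand).
Oas1a: tgtccacctgttggAaggttctgtcTGaCA
Oas1f: tgtccacctgttggGaggttctgtcCAaTG
They match at 25 of 30 bases, and the whole probes at 41 of 58 aligned bases with no shared run longer than 14 bases. The other close pair is Oas1c, bases 15 to 44 of the probe at chr5:121250208-121250267 (mm9, minus strand), and Oas1d, a copy outside the 9 genes, bases 20 to 49 of the probe at chr5:121371595-121371654 (mm9, plus strand).
Oas1c: tgagatttgaagcactGaattaaaTcaCaa
Oas1d: tgagatttgaagcactAaattaaaGcaAaa
These match at 27 of 30 bases, with a longest shared run of 16. Whether any probe lies in an exon, an intron or a UTR was not looked up, because no mm9 annotation was used here.

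RefSeq promoter sequences (GRCm38.p6, 250 bases before to 50 after the start of the gene) were found for 7 of the 9 genes and not for Oas2 and Oas1b. They were searched for the core letters of the interferon-stimulated response element, GAAA followed by NN and GAAA again, on both strands (TTTC, NN and TTTC on the other strand), where matches may overlap each other. The letters were present in 4 of the 7 promoters (Oas1a, Oas1g, Oas1c and Oas3), against 3.44% of 32851 promoters of the same length. The 4 promoters are shown because they carry these letters, which are in capitals. Oas1a lies at chr5:120907476-120907775, Oas1g at chr5:120887564-120887863, Oas1c at chr5:120812465-120812764 and Oas3 at chr5:120777610-120777909, all on the minus strand.
Oas1a: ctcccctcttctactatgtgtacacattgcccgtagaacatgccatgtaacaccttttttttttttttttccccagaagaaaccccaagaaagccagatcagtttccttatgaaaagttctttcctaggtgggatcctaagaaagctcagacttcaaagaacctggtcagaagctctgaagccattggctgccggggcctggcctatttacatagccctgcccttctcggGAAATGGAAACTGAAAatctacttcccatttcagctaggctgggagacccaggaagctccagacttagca
Oas1g: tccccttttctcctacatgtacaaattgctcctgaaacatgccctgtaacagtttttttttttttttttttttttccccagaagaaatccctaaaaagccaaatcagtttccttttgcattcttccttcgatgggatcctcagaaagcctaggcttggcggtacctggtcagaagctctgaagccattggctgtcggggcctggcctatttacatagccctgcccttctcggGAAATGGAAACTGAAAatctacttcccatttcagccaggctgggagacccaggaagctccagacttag
Oas1c: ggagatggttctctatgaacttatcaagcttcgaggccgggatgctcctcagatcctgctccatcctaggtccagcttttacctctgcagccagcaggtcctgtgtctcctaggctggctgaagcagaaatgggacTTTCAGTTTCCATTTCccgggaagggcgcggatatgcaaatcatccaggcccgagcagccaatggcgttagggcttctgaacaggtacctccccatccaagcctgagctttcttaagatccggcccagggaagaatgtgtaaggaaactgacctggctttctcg
Oas3: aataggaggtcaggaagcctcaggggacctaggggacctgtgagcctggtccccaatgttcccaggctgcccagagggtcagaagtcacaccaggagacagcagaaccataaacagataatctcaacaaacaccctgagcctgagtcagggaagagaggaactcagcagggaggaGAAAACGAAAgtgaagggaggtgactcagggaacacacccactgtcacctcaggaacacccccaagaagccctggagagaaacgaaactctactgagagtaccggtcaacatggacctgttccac
The Oas1a promoter held overlapping matches at positions -20 to -11 and -14 to -5 relative to the start, and Oas1g held the same letters at -18 to -9 and -12 to -3. Oas1c held overlapping matches of the reverse complement from -114 to -105 and from -108 to -99, and Oas3 held a single match from -75 to -66. The gamma-activated site letters TTCNNNGAA were present in Oas1a alone among the 7, at -98 to -90, and in 8.30% of all promoters. The promoters of Oas1f, Oasl1 and Oasl2 did not hold the response element letters in this window. A match in letters is not a measured binding site.

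Signal near background and 4 arrays per group set the precision. Of the spots of an array, 66.9% to 76.4% were well above background. Slide 1 was the brighter, with a 75th percentile of intensity of 4706 to 5795 per array, against 1587 to 2783 on slide 2. AZD1480 replicate 1 stood apart from the other arrays, with a median correlation with them of 0.896, against 0.960 to 0.974 for the other 7 arrays. Differences of the Oas probes are therefore also given without it. Of 12 epithelial markers, defining for the labelled tumour, 12 could be tested. Levels below are log2 intensities minus the 75th percentile of their array, so 0 is the brightness of that percentile, and differences are AZD1480 minus vehicle with limma's moderated SE (n = 4 per group). Since levels of different probes also reflect the probes themselves, no level is compared between genes.

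By the scanner software's flag for signal well above background, 7 of the 9 genes had a probe detected on all 8 arrays: Oas1a, Oas1b, Oas1c, Oas1f, Oas2, Oasl1 and Oasl2. Oas3 was detected on 1 AZD1480 array and 4 vehicle arrays, and Oas1g on 0 AZD1480 arrays and 1 vehicle array. None of the 12 probes was saturated (0 of 12). With the requirement of detection on at least 4 of the 8 arrays, 10 probes of 8 genes were tested, and both Oas1g probes were not. A probe that passed only because one group was bright would have had to differ, and this applied to the Oas3 probe alone.

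**Figure D1:**
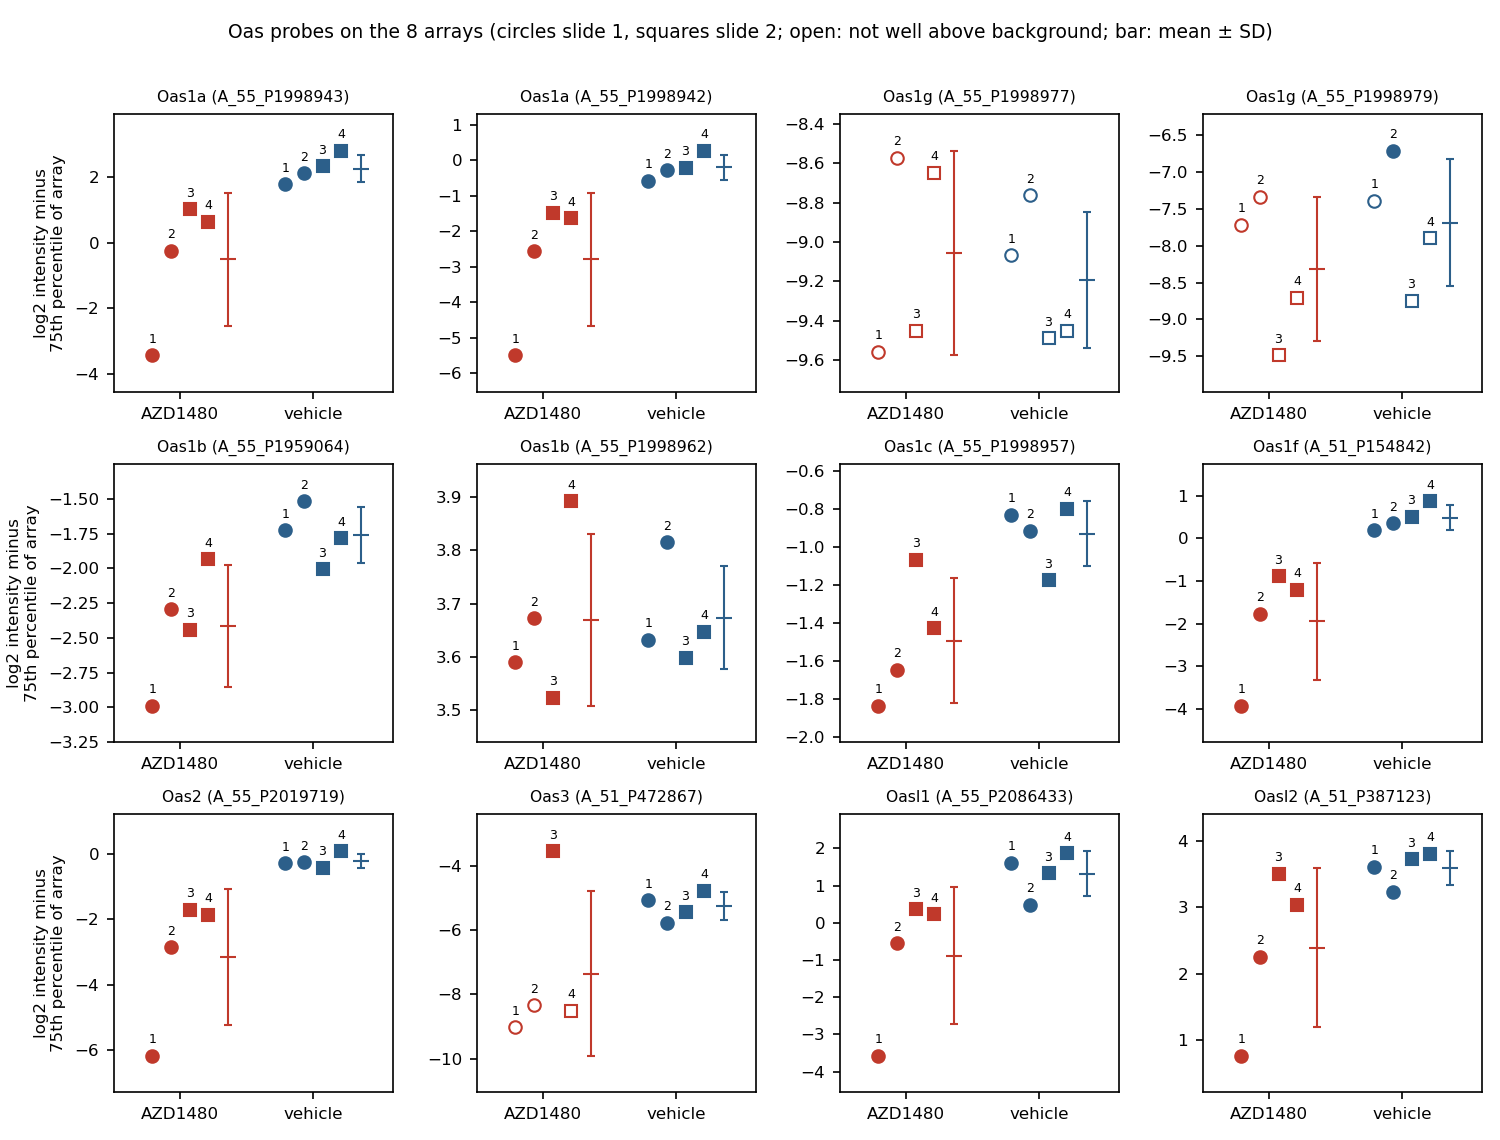
Log2 intensity minus the 75th percentile of the array for the 12 Oas probes, AZD1480 left of vehicle, with replicate numbers above the points, circles for slide 1, squares for slide 2, open symbols where the spot was not well above background, and a bar for mean ± SD of 4 arrays. The y axes differ between panels. For both Oas1a probes, Oas1f, Oas2 and Oasl1, the 4 AZD1480 arrays lie below all 4 vehicle arrays, with AZD1480 replicate 1 lowest.

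Measured levels of most Oas genes were lower in the AZD1480 tumours, and the measured difference varied in size from probe to probe. Over the 10 tested probes the median log2 difference was -2.14, with a range of -2.93 (Oas2) to -0.0039 (an Oas1b probe), while the median over all 28329 tested probes was 0.058. Of the 10 probes, 7 probes (6 genes: Oas1a, Oas1b, Oas1c, Oas1f, Oas2 and Oasl1) were lower at an unadjusted p under 0.05 in limma and 0 were higher, against 1.62% lower and 2.02% higher among all probes. For 5 probes of 4 genes (Oas1a, Oas1f, Oas2 and Oasl1), every AZD1480 array lay below every vehicle array, which held for 1.25% of all probes. A log2 difference of at least 2 downwards was measured for 6 of the 10, against 0.833% of all probes. One of the 6 is Oas3, which passed the filter through the vehicle arrays. Without it, 5 of 9 probes reached that difference and the median was -2.20, or -1.31 without AZD1480 replicate 1 as well.

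None of these differences passed the threshold over all probes. With Benjamini-Hochberg adjustment, limma called 0 of 28329 probes at an adjusted p under 0.05, with 1030 at an unadjusted p under 0.05. In an exact permutation test of each probe, 740 probes had an unadjusted p under 0.05; with 4 arrays per group its smallest p, 0.0286, could not pass adjustment unless most probes reached it, so its 0 calls say nothing further. The limma adjusted p was 0.953 for 9 of the tested Oas probes and 0.998 for the flat Oas1b probe. Without AZD1480 replicate 1, 6 of the 10 probes were lower at an unadjusted p under 0.05 (1.87% of all probes) and the median was -1.42, against 0.036 for all probes. In these bulk tumours, fewer cells that express a gene and less of its RNA per cell cannot be told apart.

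Oas1a, an active synthetase, is covered by a pair of probes. At the probe at chr5:121346735-121346794 (mm9), its levels were -3.44, -0.25, 1.01 and 0.64 on the AZD1480 arrays of replicates 1 to 4, against 1.78, 2.12, 2.33 and 2.79 on the vehicle arrays. All AZD1480 arrays lay below all vehicle arrays, and AZD1480 replicate 1 was far below the other AZD1480 arrays. The log2 difference was -2.77 ± 0.91, or 6.80-fold lower (limma unadjusted p = 0.0163, two-sided exact permutation p = 0.0286, the smallest that this number of arrays can give). Without AZD1480 replicate 1 it was -1.79 ± 0.36, or 3.45-fold.
The other Oas1a probe, at chr5:121348338-121348397 (mm9), gave -5.50, -2.57, -1.48 and -1.63 on the AZD1480 arrays, against -0.57, -0.28, -0.21 and 0.26 on the vehicle arrays. The order of the arrays was much the same and the groups again did not overlap. Its log2 difference was -2.59 ± 0.84, or 6.04-fold lower (limma unadjusted p = 0.0149, exact permutation p = 0.0286), and -1.69 ± 0.32 without AZD1480 replicate 1. The array's accessions for the brighter of these probes include Oas1g as well as Oas1a, so its signal is uncertain as to the copy.

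Oas1g, the other active copy of the Oas1 group, was close to undetected at the probes that carry its name. Its probe at chr5:121326151-121326210 (mm9) was well above background on 0 of 8 arrays, with levels of -9.56, -8.57, -9.45 and -8.65 on the AZD1480 arrays, against -9.07, -8.76, -9.49 and -9.45 on the vehicle arrays. Its probe at chr5:121326271-121326330 (mm9), whose accessions also include Oas1a, was well above background on vehicle replicate 2 alone. There the levels were -7.71, -7.33, -9.49 and -8.71 with AZD1480, against -7.39, -6.71, -8.75 and -7.89 with vehicle. The groups overlapped at both probes, and no fold is given because both groups were at background. The brighter Oas1a probe lists Oas1g as well, so low signal here does not show that Oas1g transcript was absent.

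Oas2, whose protein joins a catalytic OAS unit to an inactive one, had the lowest difference of the tested probes. Its levels were -6.18, -2.85, -1.72 and -1.86 on the AZD1480 arrays, against -0.29, -0.25, -0.42 and 0.08 on the vehicle arrays (chr5:121180343-121180402, mm9). The vehicle arrays lay within a narrow band, and every AZD1480 array lay below it. The log2 difference was -2.93 ± 0.92, or 7.64-fold lower (limma unadjusted p = 0.0129, exact permutation p = 0.0286). Without AZD1480 replicate 1 it was -1.93 ± 0.30, or 3.80-fold.

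Oas3, the largest OAS protein and in human cells the form that responds best to long double-stranded RNA, was near the detection limit. Its levels were -9.02, -8.33, -3.54 and -8.50 on the AZD1480 arrays, against -5.07, -5.77, -5.44 and -4.77 on the vehicle arrays (chr5:121203598-121203657, mm9). AZD1480 replicates 1, 2 and 4 were not well above background and lay below every vehicle array, whereas replicate 3 lay above every vehicle array. The measured log2 difference was -2.09 ± 1.13 (limma unadjusted p = 0.104, exact permutation p = 0.143), and -1.53 ± 1.16 without AZD1480 replicate 1.

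Oasl2, an active OAS-like protein with ubiquitin-like domains, had a smaller difference. Its levels were 0.77, 2.26, 3.51 and 3.04 on the AZD1480 arrays, against 3.61, 3.24, 3.73 and 3.81 on the vehicle arrays (chr5:115362168-115362227, mm9). AZD1480 replicate 3 lay above vehicle replicate 2, so the groups overlapped. The log2 difference was -1.20 ± 0.55, or 2.30-fold lower, and missed an unadjusted p of 0.05 in limma (p = 0.0598; exact permutation p = 0.0571). Without AZD1480 replicate 1 it was -0.66 ± 0.31.

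Oasl1, an OAS-like protein without synthetase activity that in mice restrains the translation of Irf7, had a larger one. Its levels were -3.57, -0.54, 0.36 and 0.23 on the AZD1480 arrays, against 1.62, 0.48, 1.33 and 1.86 on the vehicle arrays (chr5:115387861-115387920, mm9). Vehicle replicate 2 came close to AZD1480 replicate 3, but the groups did not overlap. The log2 difference was -2.20 ± 0.85, or 4.60-fold lower (limma unadjusted p = 0.0323, exact permutation p = 0.0286), and -1.31 ± 0.38, or 2.47-fold, without AZD1480 replicate 1.

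Oas1f, an Oas1 copy held to lack synthetase activity, had the smallest p of the family. Its levels were -3.92, -1.77, -0.89 and -1.20 on the AZD1480 arrays, against 0.18, 0.35, 0.50 and 0.87 on the vehicle arrays. The gap between the groups was wide on both slides. The log2 difference was -2.42 ± 0.62, or 5.37-fold lower (limma unadjusted p = 0.00464, exact permutation p = 0.0286), and -1.77 ± 0.26, or 3.40-fold, without AZD1480 replicate 1. Its probe is the one that resembles the Oas1a probe in the stretch printed above.

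Oas1c, likewise without known synthetase activity, had a small difference. Its levels were -1.83, -1.64, -1.07 and -1.43 on the AZD1480 arrays, against -0.83, -0.92, -1.18 and -0.80 on the vehicle arrays. Vehicle replicate 3 lay within the AZD1480 range. The log2 difference was -0.56 ± 0.20, or 1.48-fold lower (limma unadjusted p = 0.0244, exact permutation p = 0.0571), and -0.45 ± 0.19 without AZD1480 replicate 1.

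Oas1b is the gene of the mouse flavivirus resistance locus, and common laboratory strains such as C57BL/6 carry a form with a premature stop codon. None of its current RefSeq transcripts is coding (0). Its probes disagreed. At chr5:121273890-121273949 (mm9) the levels were -2.99, -2.29, -2.44 and -1.93 on the AZD1480 arrays, against -1.72, -1.52, -2.01 and -1.78 on the vehicle arrays. AZD1480 replicate 4 lay within the vehicle range and the log2 difference was -0.66 ± 0.24, or 1.58-fold lower (limma unadjusted p = 0.0274, exact permutation p = 0.0571), and -0.47 ± 0.19 without AZD1480 replicate 1.
At chr5:121274109-121274168 (mm9), whose accession is not in the current RefSeq table, the levels were 3.59, 3.67, 3.52 and 3.89 on the AZD1480 arrays, against 3.63, 3.82, 3.60 and 3.65 on the vehicle arrays. The groups overlapped throughout and the log2 difference was -0.0039 ± 0.15 (limma unadjusted p = 0.980, exact permutation p = 0.971), and 0.023 ± 0.15 without AZD1480 replicate 1. A further probe at chr5:121274126-121274185 (mm9), described in the array file as Oas1b but named by an Ensembl transcript and so not among the 12, matches this one at 42 of 43 overlapping bases and was likewise flat (-0.098 ± 0.17, and -0.083 ± 0.18 without AZD1480 replicate 1). Why the probes of this gene differ was not tested.

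Of the Oas1 copies outside the 9 genes, Oas1e was at -0.87 ± 0.38 (limma unadjusted p = 0.0508), with levels of -5.08 to -3.82 on the AZD1480 arrays, all below the -3.79 to -2.59 of the vehicle arrays, and at -0.62 ± 0.35 without AZD1480 replicate 1. Oas1d, known from mouse oocytes as an inhibitor of Oas1a, was at -0.53 ± 0.28 (limma unadjusted p = 0.0967), and at -0.75 ± 0.23 without AZD1480 replicate 1. Oas1d thus did not share the low value of AZD1480 replicate 1, which at -4.08 was its highest AZD1480 array. Oas1h was dim, with 1 probe detected on 1 AZD1480 array and 3 vehicle arrays (-0.68 ± 0.81, and -1.30 ± 0.69 without AZD1480 replicate 1) and the other on 0 of 8.

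**Figure D2:**
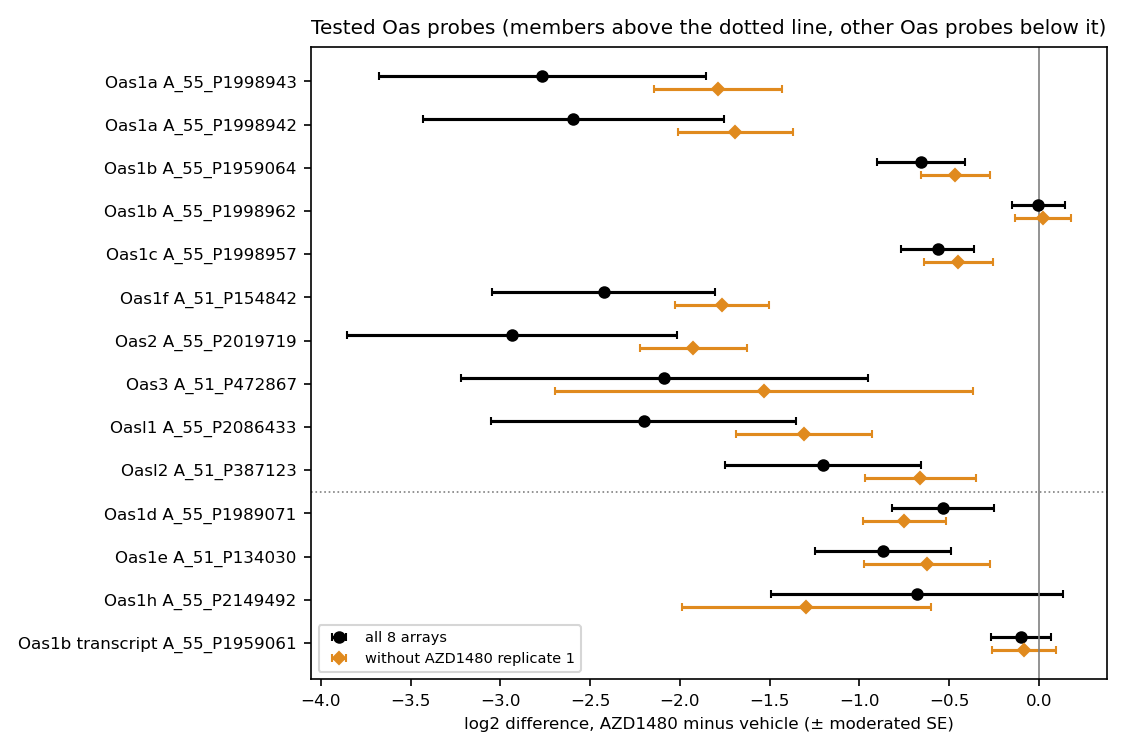
Log2 difference, AZD1480 minus vehicle, with limma's moderated SE for each tested Oas probe, over all 8 arrays (black circles) and without AZD1480 replicate 1 (orange diamonds); members lie above the dotted line. Oas2 is lowest at -2.93 and moves to -1.93 without that array, while 1 Oas1b probe stays within 0.023 of 0.

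Whether members differed from each other in the size of their difference was tested on the per-array difference of their log2 values, for all 28 pairs of the 8 tested genes. Oas3, which passed the filter through the vehicle arrays, is among these genes, and its pairs count in the adjustment. The smallest exact permutation p of a pair with Oas3 was 0.143 (with Oas1c). The smallest possible two-sided exact permutation p of 0.0286 was reached by 11 pairs, and 0 passed after Benjamini-Hochberg adjustment over the pairs (smallest adjusted p = 0.0727). Even this smallest p could not pass unless more pairs had reached it, so the 0 calls say nothing further. Oas2 was lower than Oasl2 by a further -1.73 log2 units, Oas1a by -1.48 and Oas1f by -1.22, each at this smallest p. Between Oas2 and Oasl1 it was -0.73 (exact permutation p = 0.0286, adjusted p = 0.0727). Oas1a and Oas1f were not separated (-0.26, exact permutation p = 0.600), with a SD of their per-array difference of 0.58 on the AZD1480 arrays and 0.097 on the vehicle arrays. Oas1b entered as the mean of its disagreeing probes, and all pairs share the same 8 arrays.

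AZD1480 replicate 1 was the lowest of the 8 arrays for 9 of the 10 tested probes, against 22.5% of all probes. Oas3 is among the 9, but its spot on that array was not well above background. The remaining probe, the flat Oas1b probe, was lowest on AZD1480 replicate 3. The 10 probes, Oas3 included, were each centred on their own mean over the 8 arrays. Their mean was -2.63, -0.86, 0.30 and -0.30 on the AZD1480 arrays, against 0.81, 0.70, 0.80 and 1.17 on the vehicle arrays. Oas3 passed the filter through the vehicle arrays, so its part in this mean would have had to differ. At -3.54 it also raised the mean on AZD1480 replicate 3. A mean without Oas3 was not computed, and the distances below use this mean as it stands. In this mean, the AZD1480 tumours spread widely around a lower level and the vehicle tumours lay close together. The genes outside the family whose centred profiles lay nearest to this mean profile, of 18343 compared over the 8 arrays, were H2-T23 at a root mean square distance of 0.211, Ifitm3 at 0.234, Apol9a at 0.243, H2-Q8 at 0.248 and Gm6571 at 0.264, where the median gene was at 1.26.

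**Figure D3:**
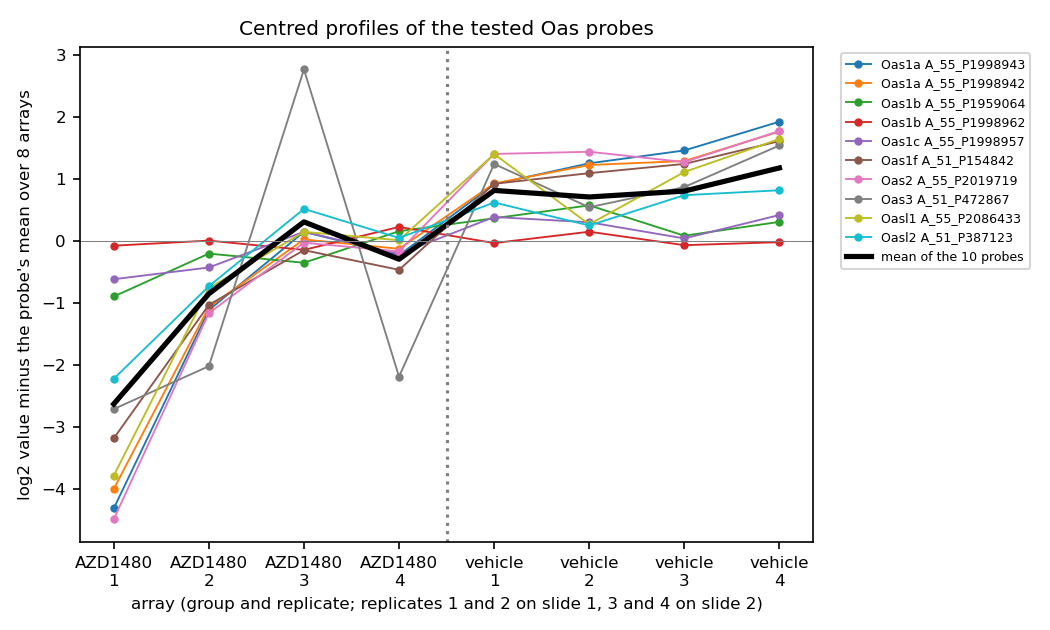
Log2 values of the 10 tested Oas probes on each array, centred on the probe's own mean over the 8 arrays, with their mean in black. The mean is lowest on AZD1480 replicate 1 (-2.63) and between 0.70 and 1.17 on the vehicle arrays. It includes Oas3, which passed the filter through the vehicle arrays. Oas3 leaves the common shape on AZD1480 replicate 3 and an Oas1b probe is flat throughout.

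The difference was larger on slide 1 than on slide 2 for 10 of 10 probes (9 of 9 without Oas3), against 50.9% of all probes. Over the 10 probes, Oas3 included, the median was -3.11 within slide 1 and -1.11 within slide 2 (2 arrays per group each). Both Oas1a probes were at -3.80 and -3.61 within slide 1, and at -1.73 and -1.58 within slide 2. Oas2 was at -4.25 within slide 1 and -1.62 within slide 2, Oas1f at -3.11 and -1.73, Oasl1 at -3.11 and -1.30, and Oas3 at -3.26 and -0.92. Oasl2 was at -1.91 within slide 1 and -0.49 within slide 2, Oas1c at -0.87 and -0.26, and the Oas1b probes at -1.02 and -0.29, and at -0.093 and 0.085. Slide 1 holds AZD1480 replicate 1, and the test of the slide difference itself called 0 of 28329 probes, with a limma adjusted p of 0.993 for the Oas probes and 0 of them at an unadjusted p under 0.05 (1.52% of all probes).

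**Figure D4:**
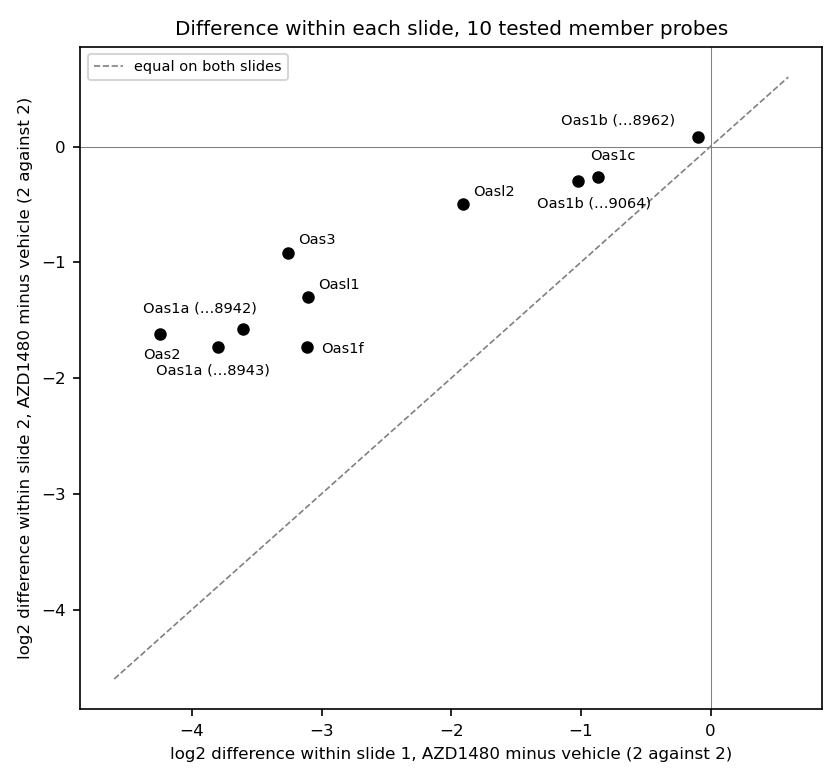
Log2 difference, AZD1480 minus vehicle, of the 10 tested Oas probes within slide 1 (x axis) and within slide 2 (y axis), 2 arrays per group on each slide; the dashed line marks equal differences. All 10 points lie above the line, and Oas1a and Oas1f are lowest on slide 2 at -1.73.

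Genes that act with the OAS enzymes were read from lists, 1 probe per gene, in a fit over 18354 genes in which limma called 0 after adjustment (1, Mx1, without AZD1480 replicate 1, at a limma adjusted p = 0.0486; its probe was well above background on 1 AZD1480 and 4 vehicle arrays and so passed the filter through the vehicle group); 1.79% of all genes were lower and 1.69% higher at an unadjusted p under 0.05. Pde12 and Akap7, whose proteins can degrade 2-5A, were at 0.013 ± 0.20 and -0.20 ± 0.17.

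Of 11 sensors and adaptors of nucleic acids, 6 were lower and 0 higher at an unadjusted p under 0.05 (median -0.82, and -0.57 without AZD1480 replicate 1). They included the RNA-editing enzyme Adar (-1.01 ± 0.18), the double-stranded RNA receptor Tlr3 (-1.13 ± 0.27), the Z-form nucleic acid sensor Zbp1 (-2.59 ± 0.67) and the helicase Dhx58 (-1.81 ± 0.48). Mavs, the adaptor downstream of the RNA helicases, was at 0.16 ± 0.21.

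Of 11 genes of type I interferon signalling, 4 were lower at that level and 0 higher (median -0.34, and -0.35 without AZD1480 replicate 1). These were the transcription factor genes Irf9 (-1.13 ± 0.27), Irf7 (-2.38 ± 0.72) and Stat2 (-0.53 ± 0.20) and the receptor inhibitor Usp18 (-2.43 ± 0.75). The receptor genes Ifnar1 (-0.046 ± 0.17) and Ifnar2 (-0.10 ± 0.18) and the kinase genes Jak1 (0.055 ± 0.32) and Tyk2 (0.073 ± 0.24) lay near 0.

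Of 17 listed interferon genes, 9 were tested and 0 were lower and 1 higher at that level, Ifna14 (0.83 ± 0.27), whose near-identical neighbours make the copy uncertain. Ifnb1 and Ifng were detected on 1 array at most. Of 12 other interferon-induced genes, 6 were lower and 0 higher (median -1.95, and -0.94 without AZD1480 replicate 1), including Ifi44 (-3.51 ± 0.60), Ifit3 (-2.61 ± 0.66) and Isg15 (-2.01 ± 0.54). Mx1, counted among these 6 and in the median, was at -4.37 ± 0.56 as measured, and at -3.80 without AZD1480 replicate 1. It was well above background on 1 AZD1480 array and 4 vehicle arrays. It thus passed the filter through the vehicle group and would have had to differ. The lists were chosen with earlier results of these arrays known.

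**Figure D5:**
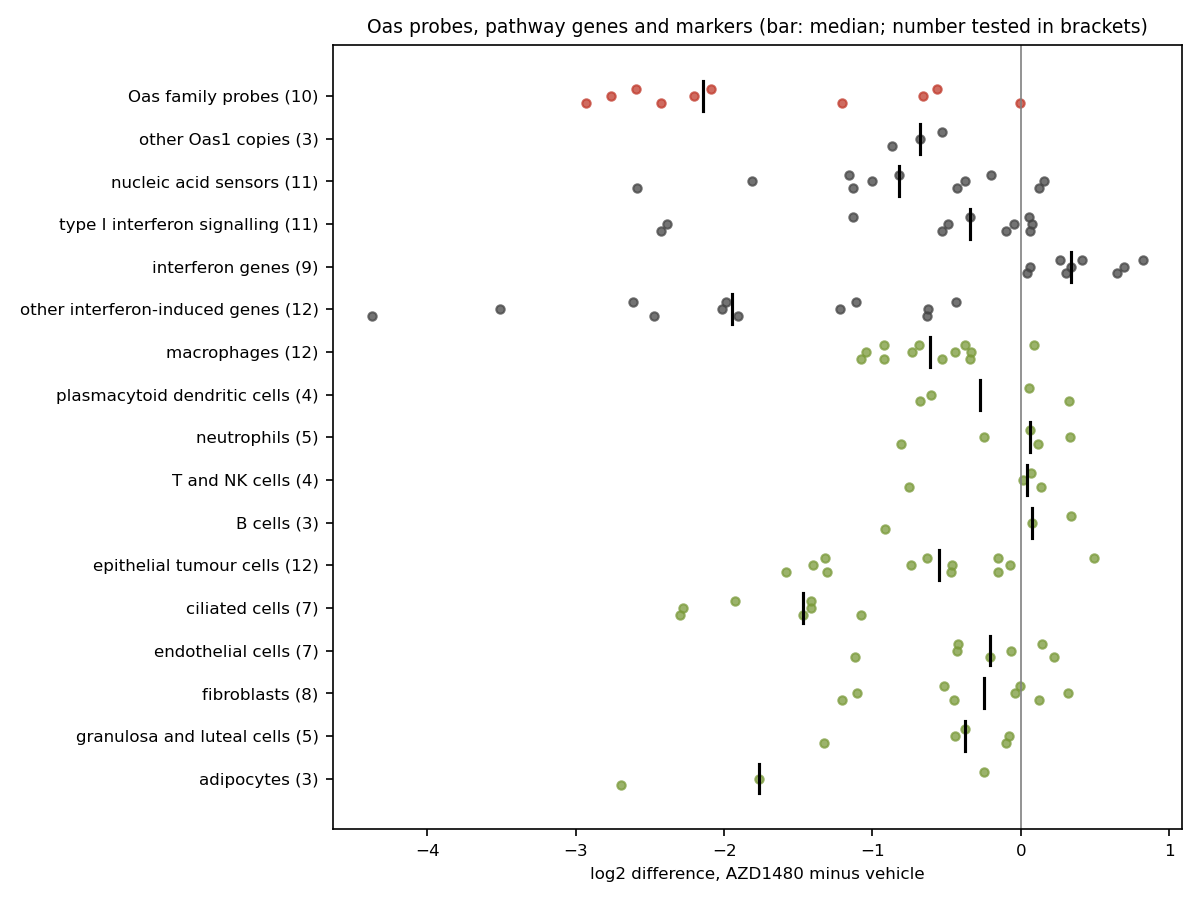
Log2 difference, AZD1480 minus vehicle, of the 10 tested Oas probes (red), of tested genes in pathway lists (grey) and of cell type markers (green), with a bar at each list's median and the number tested in brackets. The Oas median is -2.14, that of the other interferon-induced genes -1.95, and that of the macrophage markers -0.61. Oas3 and Mx1, which passed the filter through the vehicle arrays, are included.

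Markers of several cell types were also low or high on AZD1480 replicate 1. Of 12 macrophage markers, 11 were lower, against 8172 of all 18354 genes. At an unadjusted p under 0.05, 2 of them were lower (Fcgr3 and Mrc1), against 1.79% of all genes. The median of the macrophage markers was -0.61. Their summed level, relative to the 75th percentile of the array, was 13.8 to 61.7 on the AZD1480 arrays, with replicate 1 lowest. It was 31.4 to 35.6 on the vehicle arrays. Such a sum is on the linear scale, so bright probes, here Itgam, weigh most in it. The mean log2 level of the 12 markers was -1.17 to 0.57 on the AZD1480 arrays, again with replicate 1 lowest. On the vehicle arrays this mean was 0.43 to 0.68. Without AZD1480 replicate 1 the macrophage median was -0.16 and 9 of the 12 were lower, against 8669 of all 18354 genes. Fcgr3 at -0.81 and Mrc1 at -0.97 were then the lowest of the 12, and Itgam was at 0.30. Within slide 2 the macrophage median was -0.23.

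Ciliated cell markers summed to 0.972 on AZD1480 replicate 1 and up to 46.1 on the other AZD1480 arrays, against 39.0 to 62.7 on the vehicle arrays. Granulosa and luteal markers summed to 10.4 to 149.7 on the AZD1480 arrays, with replicate 1 highest, against 11.6 to 59.2 on the vehicle arrays. Epithelial markers summed to 34.7 to 78.0 on the AZD1480 arrays, with replicate 1 lowest, against 40.3 to 125.2 on the vehicle arrays. By mean log2 level replicate 1 was not the lowest, at -0.78 in an AZD1480 range of -0.96 to 0.064. The vehicle range of this mean was -1.05 to 1.38. Of 8 T and NK cell markers 4 were tested, among them Cd3e at 0.014 ± 0.18, while Cd3g, Cd8a, Klrb1c and Gzmb were detected on 3 arrays at most. The median difference of the ciliated markers was -1.47, and -0.14 without AZD1480 replicate 1. Leaving out that array turned the sign of the median for neutrophils (0.062, and -0.45 without it), fibroblasts (-0.25, and 0.083) and T and NK cells (0.039, and -0.042). Granulosa and luteal markers were at -0.38 (-1.76 without it), epithelial markers at -0.55 (-0.33), plasmacytoid dendritic cells at -0.28 (-0.093), B cells at 0.078 (0.33), endothelial cells at -0.20 (-0.27) and adipocytes at -1.76 (-2.15). The part of cell composition in the Oas differences was not tested.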

How the data were processed

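Total RNA of 8 tumours, 1 per mouse and labelled with Cy3, was hybridised to Agilent 1-colour arrays. Image analysis used Agilent Feature Extraction 9.5.3, per the submitters' processing notes. Per the file headers, the deposited intensity of a spot is given raw, for its local background, and processed. Processing there meant background subtraction and detrending within an array, so arrays had not been scaled to each other. A table of log2 values of these arrays, also deposited, served as an alternative, and the sources used here do not give its offset. Coordinates of probes are on mm9, as in the array files.

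Here the processed intensity was put on a log2 scale relative to the 75th percentile of each array, taken over non-control probes. Flagged outlier spots were dropped, repeat spots averaged, and probes required to be well above background on at least 4 of 8 arrays; another 9 had an array with flagged spots alone and were dropped. The 28329 probes were fitted on treatment alone by lmFit and eBayes of limma 3.58.1 (R 4.3.3), two-sided, with Benjamini-Hochberg adjustment over all of them. Gene lists were read from a fit with the brightest kept probe of each gene, named by RefSeq accession or else by the file. The fit was tested on simulated data whose noise was capped at the median SD of the tested probes. That test does not cover probes with a wider spread, such as most Oas probes on the AZD1480 arrays. Some genes of the lists are not reported here. Replicates are separate mice.

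The family's members and the gene lists were chosen with earlier results of these data known. Named were every Oas probe, up to 4 genes of each pathway list by smallest p plus genes needed for their role (receptors, kinases, transcription factors), the 5 nearest profiles, and up to 3 defining markers of a list. Sequences came from the array design (probes) and from RefSeq, GRCm38.p6 (promoters). Alternatives covered background correction, scaling, the filter on dim probes, the deposited table, slide, replicate block, array weights, the variance model, 1 probe per gene, an exact permutation test and leaving out each array.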

Additional observations from a re-analysis of the deposited data

Results flagged for a closer look

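For Oas3, AZD1480 replicate 3 lay far from the other AZD1480 arrays, at a level of -3.54 where they lay between -9.02 and -8.33. It was the one AZD1480 array on which the probe was well above background, and the spot carried no outlier flag. It was the 1 flag among 20 groups of 4 arrays looked at by Dixon's criterion, and chance flags about 1 in 20. The cause was not tested.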

How the results depend on the processing

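In the fits over probes, limma called 0 under each alternative run, and with 1 probe per gene it called 0 over all 8 arrays and 1 (Mx1) without AZD1480 replicate 1. The exact permutation test could not pass adjustment at 4 arrays per group. Against 7 Oas probes lower at an unadjusted p under 0.05, leaving out 1 array at a time gave 4 to 8 probes. It gave 4 without vehicle replicate 1 and 4 without vehicle replicate 4. The other alternatives gave 5 (exact permutation test and slide 2 alone) to 8. The count over all 28329 probes, in either direction, moved as well, from 1030 in the main fit. It was 622 without vehicle replicate 1, 696 without vehicle replicate 4 and 2434 without AZD1480 replicate 3. In the exact permutation test it was 740, on slide 2 alone 908 and with array weights 1471. The log2 differences of the other 9 tested Oas probes were negative under each alternative. They ranged from -4.25 to -1.62 for Oas2, from -3.80 to -1.73 and from -3.61 to -1.58 for Oas1a, from -3.11 to -1.73 for Oas1f, from -3.11 to -1.30 for Oasl1, from -1.91 to -0.49 for Oasl2 and from -3.36 to -0.37 for Oas3. The flat Oas1b probe was at -0.078 to 0.045 over the fits that left out 1 array. It turned positive with array weights (0.018), on slide 2 alone (0.085), without AZD1480 replicate 1 (0.023), without AZD1480 replicate 3 (0.045) and without vehicle replicate 2 (0.043); the cause was not tested.

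Whether the replicate numbers pair the samples was not settled (correlations of deviations of 0.35, 0.37, 0.14 and -0.06 for numbers 1 to 4). AZD1480 replicates 1 and 2 correlated best with the vehicle replicate of their own number. AZD1480 replicates 3 and 4 correlated best with vehicle replicates 4 and 2. With the replicate block, 0 probes were called and 6 Oas probes were lower at an unadjusted p under 0.05, where 1272 of 28329 probes reached it in either direction. With 1 probe per gene, 5 of 8 Oas genes were lower at that level, since Oas1b is then read by its flat probe. Of all 18354 genes, 639 reached it in either direction. The tests of the slide difference and of pairs of genes gave 0 calls with quantile normalization as well. For the pairs, the smallest possible exact p limits what this can show. Signal over background limits Oas1g, Oas1h and Oas3.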
